A study of Mus musculus with 24 samples.

Results

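The genes described here encode ion channels, water channels and sodium pump subunits, taken from a study of progesterone in the mouse uterus. A probe set, the group of short DNA probes that measures a transcript on the array, was included where the platform annotation named a single gene and its symbol began with Kcn (potassium channels), Clcn (chloride channels and transporters), Aqp (water channels), Scn (sodium channels), Cacn (calcium channels) or Atp1a or Atp1b (sodium pump), or was Cftr, a chloride channel. The rule used symbols only and no measured value. It found 101 probe sets for 76 genes among the 12422 tested probe sets, of which those naming a single gene covered 8251 genes. No member was an alpha subunit of the sodium pump or a subunit of the epithelial sodium channel, so the pump is represented here by its beta subunits Atp1b1, Atp1b2 and Atp1b3.

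Salt and water move across the uterine epithelium through pumps and channels that work in series. The sodium pump exports sodium and imports potassium, and its beta subunit carries the catalytic alpha subunit to the cell surface. Chloride leaves through Cftr, water follows through aquaporins, and potassium channels return potassium and set the membrane voltage. In the muscle wall, voltage-gated calcium channels admit the calcium that drives contraction, and potassium channels oppose it. Ovarian steroids are known to control the fluid in the uterine lumen and the excitability of its muscle.

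Uteri came from wild-type mice and from progesterone receptor knockout (PRKO) mice, all ovariectomized at 6 weeks of age and treated 2 weeks later, so that every group lacked its own ovarian hormones. Mice received progesterone (P4, 1 mg per mouse in 100 µl sesame oil) or sesame oil alone, and uteri were taken 4 h after 1 injection, or 4 h after the last of 4 injections given 12 h apart, called 40 h. Genotype, treatment and time gave 8 groups of 3 Affymetrix arrays, which makes 24 arrays. RNA of 5 mice was pooled for each genotype and treatment. Since no label tells whether replicate arrays came from 1 pool or several, p-values measure the spread between arrays, which may be technical. Strain and the form of the receptor deletion are not named in the labels.

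Signals are linear intensities scaled to a common trimmed mean of 500 on each array. A log2 change is the difference between group means of log2(signal + 32), given with its standard error (SE) from limma, and a fold is on that same scale, which compresses changes of dim probe sets. A rise or a fall is stated where the limma p-value, adjusted over all 12422 probe sets, was under 0.05. Brightness is given as the percentile of a probe set's mean signal among all probe sets, which depends on its probes and is no measure of one gene against another. The 24 arrays had median signals of 323.2 to 342.6, and their number limits the precision. The probe set of the targeted gene, Pgr, differed by −0.16 ± 0.08 at 4 h and −0.14 ± 0.08 at 40 h between PRKO and wild-type vehicle uteri (adjusted p = 1 at both times). Where its probes lie on the deleted gene is not known here, so it checks no label. Stroma, smooth muscle and epithelium markers were present, at median percentiles of 96.9, 98.9 and 73.1, as were adipocyte markers at 93.5, and no marker of any list was at 0. Replicate 2 of wild-type vehicle and replicate 2 of wild-type P4 at 4 h had Gapdh 3' to 5' signal ratios of 3.67 and 3.25. That ratio, a sign of RNA quality, was 1.23 to 1.86 on the other 22 arrays. The same ratio for beta-actin was not high on the arrays with high Gapdh ratios. It was 1.42 and 1.30 there, within the 1.11 to 1.96 of all 24 arrays.

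Few channel genes passed the test after progesterone. In wild-type uteri at 4 h, 3 of 101 members (2.97%) rose and none fell. Of all probe sets 0.708% passed, 0.523% higher and 0.185% lower. The risers were the potassium channel gene Kcnk1, the endosomal chloride transporter gene Clcn5 and the pump subunit gene Atp1b1. At 40 h, 3 members rose and 1 fell (3.96% of members), while 1.54% of all probe sets passed, 0.716% higher and 0.821% lower. Clcn5 was again higher, with the pump subunit gene Atp1b3 and the water channel gene Aqp4, while the potassium channel gene Kcnq1 fell. The median change over all members was 0.01 at 4 h and −0.01 at 40 h, and over all probe sets it was 0.00 at both times. Arrays of the groups did not overlap for 5 members at 4 h (6.67% of all probe sets) and for 20 at 40 h (19.8%). Changes of less than 0.2 in either direction were found for 94 of the 101 members at 4 h and for 86 at 40 h.

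**Figure D1:**
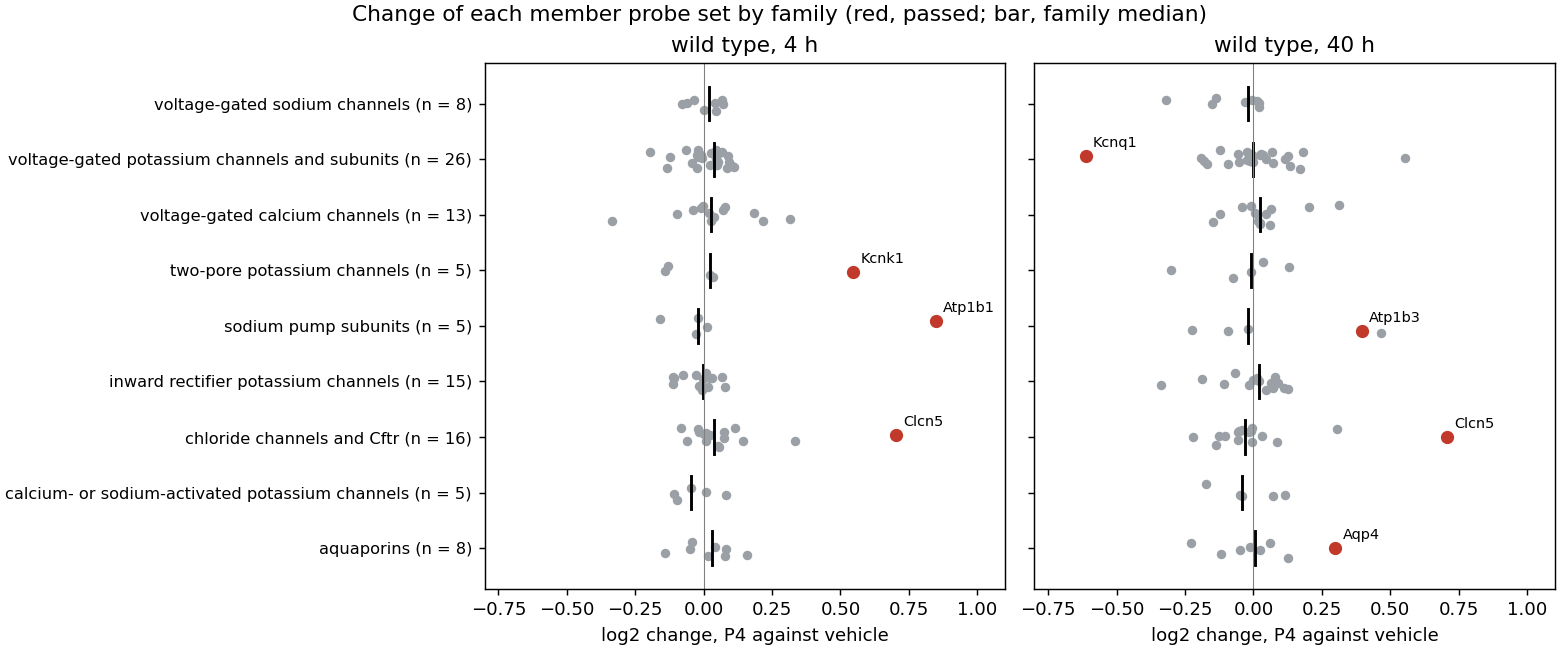
Log2 change of each member probe set (P4 against vehicle, wild type) by family at 4 h and 40 h, with passing probe sets in red and the family median as a bar. The family medians lie near 0, and the passing probe sets stand at 0.55 to 0.85 at 4 h and at −0.61 to 0.71 at 40 h.

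Members were spread thinly over the families. Voltage-gated potassium channels and their subunits held 26 probe sets, of which none passed at 4 h and 1 fell at 40 h. Chloride channels with Cftr held 16, of which 1 rose at each time. Inward rectifier potassium channels held 15, voltage-gated calcium channels 13, voltage-gated sodium channels 8 and calcium- or sodium-activated potassium channels 5, and none of these passed at either time. Of 8 aquaporin probe sets 1 rose at 40 h, of 5 tandem-pore potassium channel probe sets 1 rose at 4 h, and of 5 sodium pump probe sets 1 rose at each time. All 3 risers at 4 h were among the 28 members at or above the median signal of all probe sets, and the other 73 members were below it. Of all 88 probe sets that passed at 4 h, 65 were at or above that median.

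Kcnk1 encodes a tandem-pore channel (TWIK1) that carries background potassium current. Its signals in wild-type vehicle arrays at 4 h were 921.6, 900.1 and 931.6, and after P4 they were 1331, 1408 and 1327. The P4 arrays lay far above the vehicle arrays, a log2 change of 0.55 ± 0.08 (1.46-fold, adjusted p = 0.000879). At 40 h the order was turned around, with vehicle signals of 1013, 1029 and 939.4 and P4 signals of 790.3, 806.3 and 801.6. All P4 arrays were then below all vehicle arrays, a log2 change of −0.30 ± 0.08 that missed the threshold (adjusted p = 0.069). The change at 40 h differed from that at 4 h by −0.85 ± 0.12 (adjusted p = 0.000642), 1 of 2 members that passed this comparison, both lower, against 0.475% of all probe sets in either direction and 0.258% lower. In PRKO uteri the signals overlapped at both times: 766.7, 927.2 and 875.7 with vehicle and 830.8, 1026 and 872.1 with P4 at 4 h, and 802.1, 918.3 and 789.4 with vehicle and 822.6, 822.4 and 865.9 with P4 at 40 h. Those changes were 0.08 ± 0.08 and 0.00 ± 0.08. The wild-type effect at 4 h exceeded the PRKO effect by 0.46 ± 0.12 (95% interval 0.22 to 0.71), which did not pass (adjusted p = 0.247).

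Clcn5 encodes the chloride-proton exchanger ClC-5 of endosomes. Wild-type vehicle signals at 4 h were 364.6, 368.2 and 409.4, and P4 signals were 655.9, 816.4 and 485.2. Although the P4 arrays spread widely, the lowest of them was above every vehicle array. Clcn5 rose by 0.70 ± 0.12 (1.63-fold, adjusted p = 0.00397). At 40 h the vehicle arrays gave 414.2, 330.5 and 348.8 and the P4 arrays 665.6, 562 and 617.2, again without overlap and by 0.71 ± 0.12 (1.63-fold, adjusted p = 0.0024). The change at 40 h minus that at 4 h was 0.01 (95% interval −0.35 to 0.36), so the effect of 4 injections could be larger or smaller than that of 1 within that range. In PRKO uteri the P4 arrays at 4 h (288.6, 286.3 and 276.6) were all below the vehicle arrays (299.9, 304.7 and 354.4), by −0.15 ± 0.12. At 40 h they were all above them, at 342.6, 341.5 and 324.2 against 277.4, 263.9 and 268.2, by 0.29 ± 0.12, and neither change passed (adjusted p = 1 and 0.703). The genotype difference of the effect was 0.85 ± 0.17 at 4 h (adjusted p = 0.0548) and 0.42 ± 0.17 at 40 h (adjusted p = 0.512). With the replicate number as a block the 4 h difference passed (adjusted p = 0.0449). That block covers the PRKO arrays too, where the deviations of replicate 3 with P4 and with vehicle correlated at −0.12. For replicates 1 and 2 they correlated at 0.63 and 0.25. The numbers are thus not supported as pairs for all PRKO arrays at 4 h. The other Clcn5 probe set was at percentile 0.918 of brightness, with signals of 10.4 to 27.4, and its changes of 0.07 ± 0.10 and −0.06 ± 0.10 did not pass.

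Atp1b1 encodes the beta 1 subunit of the sodium pump. At 4 h its wild-type vehicle arrays were far apart, at 467.8, 294.7 and 623.3, and the P4 arrays were at 828.5, 914.7 and 732.3. Every P4 array was above every vehicle array, and Atp1b1 rose by 0.85 ± 0.16 (1.80-fold, adjusted p = 0.008). At 40 h the groups were again separate, with 448.5, 481.6 and 375.5 after vehicle and 560.4, 621.9 and 650.6 after P4, and the change of 0.46 ± 0.16 did not pass (adjusted p = 0.182). PRKO signals stayed between 265.7 and 329.9 on all 12 arrays, with changes of 0.00 ± 0.16 at 4 h and 0.11 ± 0.16 at 40 h. Their difference from the wild-type effect at 4 h was 0.84 ± 0.22 and did not pass (adjusted p = 0.339). The other Atp1b1 probe set did not follow: its signals were 129.5 to 160.2 with vehicle and 139.1 to 150.5 with P4 in wild-type uteri at 4 h, a change of 0.01 ± 0.09 (95% interval −0.18 to 0.20). The 2 probe sets of this gene therefore disagree, and the name of the one that rose carries the suffix "_f_at", which Affymetrix gave to probe sets whose probes can match several transcripts.

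The 4 h calls of Clcn5 and Atp1b1 rested partly on the arrays with high Gapdh ratios. Without both of those arrays the changes were 0.51 (adjusted p = 0.115) and 0.50 (adjusted p = 0.194), and without replicate 2 of wild-type P4 alone Atp1b1 had an adjusted p of 0.0741. With arrays of 4 h only in the model the adjusted p-values were 0.0895 and 0.134. Kcnk1 passed in each of these fits. The mean log2 signal of epithelium markers, here the epithelium score, was 9.29 to 9.50 after P4 against 9.52 to 9.72 in wild-type uteri at 4 h. Of 17 measured markers 1 fell (Tspan8), and the changes ran from −0.95 to 0.39 with a median of −0.16. In PRKO uteri at 4 h the median was −0.18, and the scores of 9.37 to 9.70 with P4 overlapped those of 9.44 to 9.76 with vehicle. The epithelium score as a covariate was an alternative chosen after seeing the data. In that fit all 3 members passed, with changes of 0.63 for Kcnk1, 0.77 for Clcn5 and 0.74 for Atp1b1. The score did not overlap between the wild-type groups, so the fit cannot separate it from the P4 effect. In whole uterus, a change in the share of a cell type and a change of RNA per cell cannot be told apart.

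**Figure D2:**
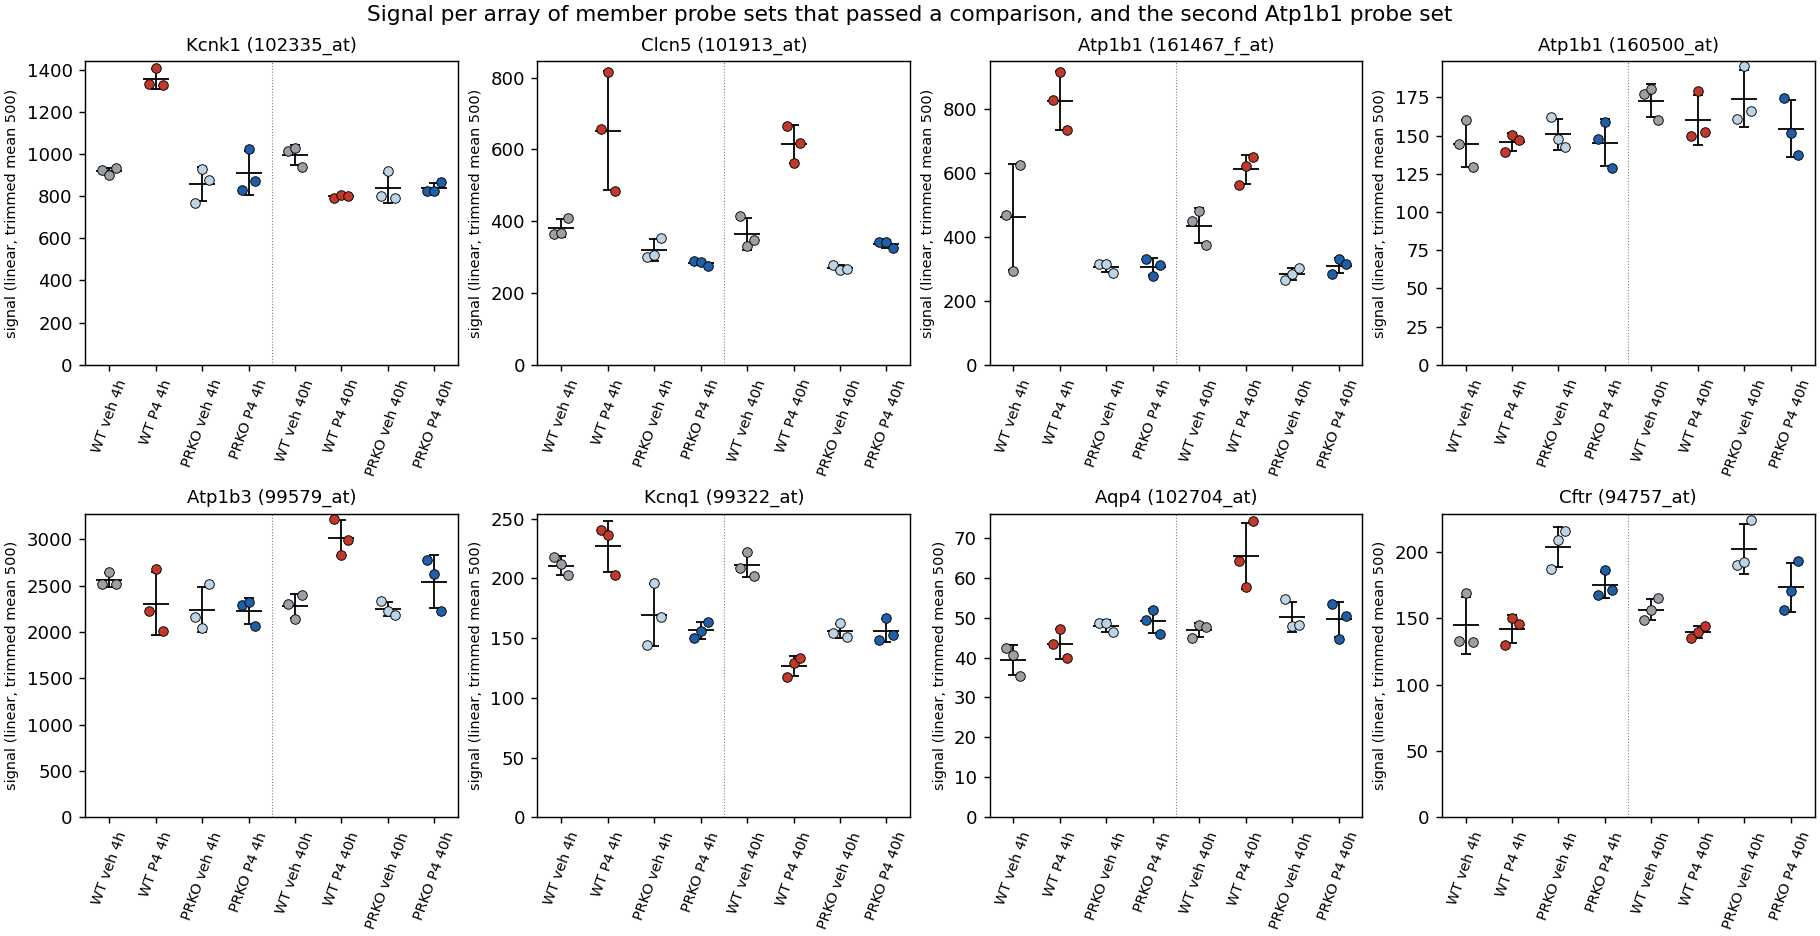
Signal on each array (points; linear scale from 0), group mean (dash) and SD over 3 arrays (bar) in the 8 groups for the 7 member probe sets that passed a comparison and the other Atp1b1 probe set. Kcnk1 is high in the wild-type P4 4 h group (1327 to 1408) and low at 40 h (790.3 to 806.3), and Clcn5 is high in both wild-type P4 groups.

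The stretch of 250 bases before the transcription start is shown for the members that rose at 4 h, because the progesterone receptor can bind DNA directly. The sequences are from the RefSeq table for GRCm38.p6, in the direction of the gene, and capitals mark the steroid receptor motif TGTTCT. Clcn5 has a pair of start sites and lies on the minus strand, at chrX:7319359-7319608 for the first window and chrX:7188715-7188964 for the next. Kcnk1 is on the plus strand at chr8:125994852-125995101 and Atp1b1 on the minus strand at chr1:164458356-164458605.
Clcn5, first window: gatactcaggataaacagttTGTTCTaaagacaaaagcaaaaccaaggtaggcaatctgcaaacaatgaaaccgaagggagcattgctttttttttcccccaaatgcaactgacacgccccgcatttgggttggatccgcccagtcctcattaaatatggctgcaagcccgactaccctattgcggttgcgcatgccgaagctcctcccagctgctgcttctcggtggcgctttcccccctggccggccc
Clcn5, next window: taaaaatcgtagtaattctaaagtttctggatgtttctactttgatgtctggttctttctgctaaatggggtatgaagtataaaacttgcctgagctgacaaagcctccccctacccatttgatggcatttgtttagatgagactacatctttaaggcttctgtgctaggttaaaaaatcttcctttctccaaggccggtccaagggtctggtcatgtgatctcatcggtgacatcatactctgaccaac
Kcnk1: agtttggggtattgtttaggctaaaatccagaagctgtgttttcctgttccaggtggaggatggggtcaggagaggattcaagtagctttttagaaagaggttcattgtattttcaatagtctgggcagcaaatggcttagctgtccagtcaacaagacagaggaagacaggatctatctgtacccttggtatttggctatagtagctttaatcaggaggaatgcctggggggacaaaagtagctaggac
Atp1b1: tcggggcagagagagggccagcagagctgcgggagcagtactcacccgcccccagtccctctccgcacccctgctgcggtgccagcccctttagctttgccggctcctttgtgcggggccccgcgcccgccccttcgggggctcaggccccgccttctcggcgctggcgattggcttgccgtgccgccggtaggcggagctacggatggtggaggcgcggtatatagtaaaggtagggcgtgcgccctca

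The motif was searched as TGTTCT and, for the opposite strand, as AGAACA, and no other motif was searched. It occurred once in the first Clcn5 window, on the strand of the gene with its first base at −230 from the start. These letters were not in the other Clcn5 window, in the Kcnk1 and Atp1b1 windows, or in the windows of Atp1b3 and Cftr. Of all promoter windows of that length in the table, 5284 of 32851 (16.1%) held the motif, and of the member windows 14 of 80 (17.5%) did, from 60 member genes with an entry. A match is a description of letters and not a binding site.

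Kcnq1, Atp1b3 and Aqp4 made up the new calls at 40 h. Kcnq1 encodes a voltage-gated potassium channel that in epithelia works with small Kcne subunits. Its wild-type vehicle signals at 40 h were 208.9, 222 and 202.1, and P4 brought them to 117.6, 129.6 and 133.7. All P4 arrays were far below all vehicle arrays, and Kcnq1 fell by 0.61 on the log2 scale (SE 0.08, adjusted p = 0.000189), to 0.654 of the vehicle level. At 4 h the signals overlapped, with 218, 211.7 and 202.6 after vehicle and 240.9, 236.5 and 202.6 after P4, and the change of 0.09 ± 0.08 did not pass. The effects at the 2 times differed by −0.70 ± 0.12 (adjusted p = 0.0033). In PRKO uteri at 40 h, signals of 154.3, 163 and 151.3 with vehicle and 148.5, 166.8 and 153 with P4 were intermixed, a change of 0.00 ± 0.08.

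Kcnq1 was the 1 member whose P4 effect differed between genotypes at 40 h. At 4 h no member passed (0.0966% of all probe sets did) and 5 had an unadjusted p under 0.05, against 3.49%. The wild-type effect at 40 h was lower than the PRKO effect by −0.61 ± 0.12 (adjusted p = 0.0379), where 0.105% of all probe sets passed, 0.0242% lower. That call was lost when any 1 of 11 of the 12 arrays was left out (adjusted p up to 0.166). It held without replicate 1 of wild-type vehicle at 40 h. The other Kcnq1 probe set was the brighter, with signals of 341.6 to 564.8 over all arrays against 117.6 to 240.9 for the called one. It changed by −0.19 ± 0.12 in wild-type and −0.21 ± 0.12 in PRKO uteri at 40 h, with overlapping arrays. Its genotype difference was not past the threshold (0.02 ± 0.18), so the 2 probe sets of this gene disagree. Kcne1, a partner subunit of Kcnq1, had 40 h signals of 424.5, 464.3 and 457 with vehicle and 496.5, 489.5 and 541.3 with P4, and its change of 0.17 ± 0.09 did not pass (adjusted p = 0.495).

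Atp1b3 encodes the beta 3 subunit of the sodium pump. Wild-type arrays at 40 h gave 2306, 2140 and 2399 with vehicle and 3216, 2832 and 2999 with P4, which did not overlap. It rose by 0.40 ± 0.10 (1.32-fold, adjusted p = 0.0498), a value at the threshold that was lost on leaving out any of the 6 arrays (adjusted p up to 0.216). At 4 h the change was −0.16 ± 0.10, and in PRKO uteri at 40 h it was 0.17 ± 0.10, with 2779, 2622 and 2229 after P4 overlapping 2337, 2230 and 2184 after vehicle. The difference between genotypes was 0.23 ± 0.14 (adjusted p = 0.659). Both probe sets of Atp1b2, the beta subunit best known from brain, had wild-type changes between −0.23 and −0.02 and none passed.

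Aqp4, a water channel, was dim, at percentile 5.59 of brightness. Vehicle signals in wild-type uteri at 40 h were 44.9, 48.2 and 47.5, and P4 signals were 64.3, 57.6 and 74.0. The P4 arrays were all higher, and Aqp4 rose by 0.30 ± 0.07 (1.23-fold, adjusted p = 0.0201). The call was lost in 5 of 6 fits that left out 1 array (adjusted p up to 0.121), and the other Aqp4 probe set changed by 0.13 ± 0.09 (adjusted p = 0.646). PRKO signals at 40 h were 47.8 to 54.5 with vehicle and 44.7 to 53.4 with P4, a change of −0.01 ± 0.07.

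Markers of several cell types moved in wild-type uteri at 40 h beside these genes. Of 10 measured adipocyte markers 7 fell, with a median of −1.08, and their mean log2 signal was 9.10 to 9.86 with P4 against 10.3 to 10.6 with vehicle. Of 17 epithelium markers 2 fell (Tspan8 and Krt7), with a mean log2 signal of 9.24 to 9.34 against 9.57 to 9.68. Of 13 stroma markers 5 rose, at 10.95 to 11.1 against 10.5 to 10.8, and the 10 smooth muscle markers had 11.8 to 11.9 against 11.5 to 11.6 with none past the threshold. Of 9 endothelium markers 1 fell (Cldn5) and of 15 skeletal muscle markers 1 rose (Acta1). With the adipocyte score as a covariate no member passed: the changes were 0.58 for Clcn5 (adjusted p = 0.729) and −0.55 for Kcnq1 (adjusted p = 0.336). Nearly all of the 191 calls over all probe sets were lost in that fit too. The score did not overlap between these groups, so the fit cannot separate it from the P4 effect. With the skeletal muscle score Kcnq1 passed (−0.63) and Clcn5 did not (0.63, adjusted p = 0.0546). With the epithelium score the changes were 0.83 for Clcn5 and −0.47 for Kcnq1, and both passed. The skeletal muscle and epithelium scores did not overlap between these groups either, so those fits have the same limit. In PRKO uteri at 40 h no marker passed in the main fit. Adipocyte scores were 10.22 to 10.50 with P4 against 10.52 to 10.67 with vehicle. Stroma scores were 10.82 to 10.88 against 10.57 to 10.75, and smooth muscle scores 11.58 to 11.72 against 11.51 to 11.57. Epithelium and skeletal muscle scores overlapped, and Acta1 changed by 1.49 ± 0.38.

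In PRKO uteri no member passed after P4 at either time in the main fit, and 0% of all probe sets did. At 40 h that count held in 13 of 14 other settings. With array weights many members and many of all probe sets passed, as given in the last section. At an unadjusted p under 0.05 there was 1 member at 4 h, against 1.9% of all probe sets, and 13 members (12.9%) at 40 h, against 6.69%. Arrays did not overlap for 4 members at 4 h (4.31% of all probe sets) and for 26 at 40 h (22.3%). At 4 h the members' changes ran from −0.23 to 0.24, and at 40 h from −0.35 to 0.63. At 40 h 23 of 101 members had all P4 arrays below all vehicle arrays, against 16.4% of all probe sets, and 3 had them above, against 5.88%. Of those 23, 20 were among the 73 members below the median signal. The members' median of −0.08 stood beside −0.04 for all probe sets, and under other scalings of the arrays that overall median lay at −0.02 and −0.01. By family the medians ran from −0.14 for inward rectifiers, with 5 of 15 separated downward, and −0.12 for calcium channels, with 5 of 13, to 0.11 for sodium pump subunits.

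**Figure D3:**
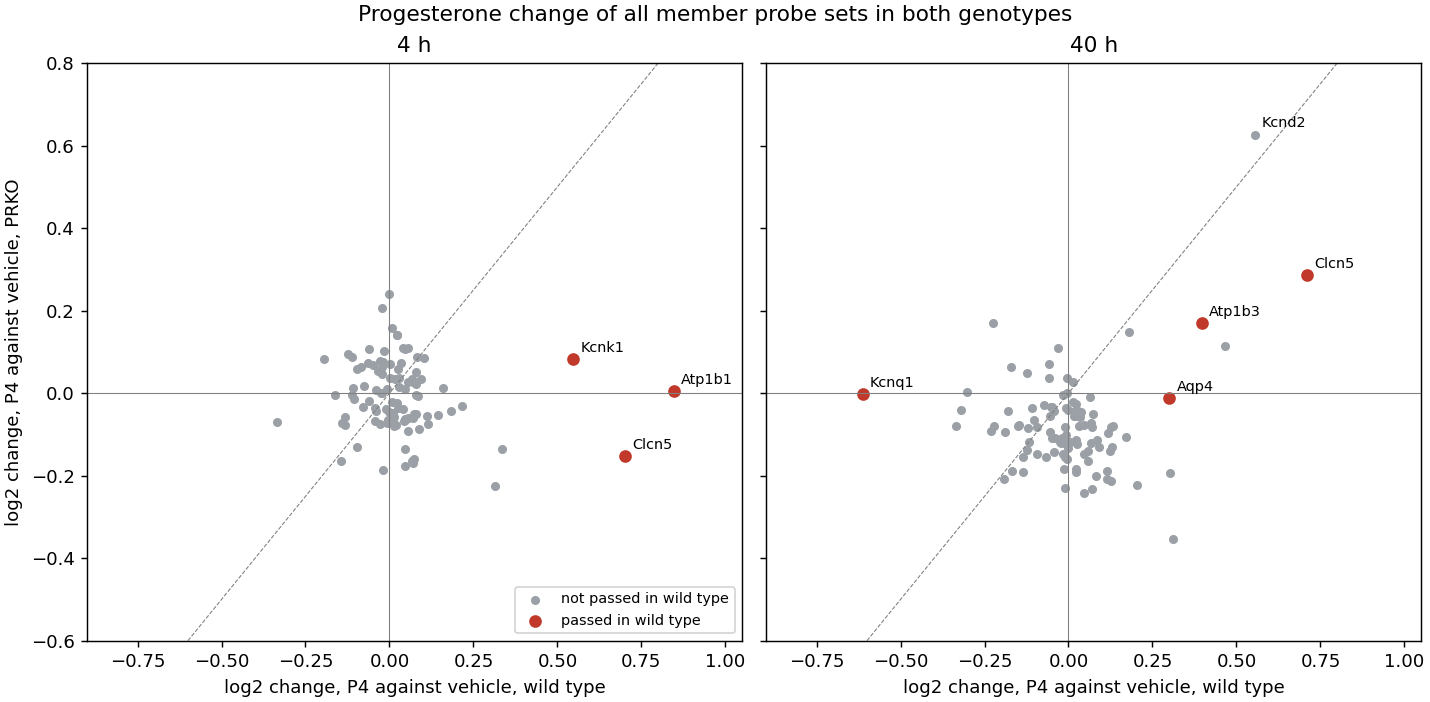
Log2 change after P4 in wild-type uteri (horizontal) and PRKO uteri (vertical) for all 101 members at 4 h and 40 h, with equal changes on the dashed line. Red marks the members that passed in wild type, a choice made on the horizontal values, and of these Kcnq1 at 40 h passed the test of the genotype difference.

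Kcnd2, a channel of the transient potassium current named here after its values were seen, had like values in both genotypes. Wild-type signals at 40 h were 43.3, 39.5 and 39.8 with vehicle and 65.6, 79.7 and 80.4 with P4, and PRKO signals were 30.6, 36.8 and 41.1 with vehicle and 54.4, 73.6 and 95.01 with P4. In both genotypes the P4 arrays were all above the vehicle arrays, by 0.55 ± 0.15 (adjusted p = 0.0613) and 0.63 ± 0.15 (adjusted p = 0.703), and neither passed. The other Kcnd2 probe set had changes of 0.18 ± 0.08 and 0.15 ± 0.08, also without overlap in either genotype. Both were dim, at percentiles 5.68 and 5.06. Non-overlapping arrays were common among all probe sets at 40 h, as given above.

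Aqp1 and Aqp2 were the brighter water channels. Aqp1, known from red blood cells and endothelium, had wild-type signals at 40 h of 1714, 1431 and 1248 with vehicle and 1371, 1144 and 1197 with P4, which overlapped, and its changes of −0.14 ± 0.20 at 4 h and −0.23 ± 0.20 at 40 h did not pass and turned sign in other fits. Aqp2, known as the vasopressin-regulated channel of the kidney, changed by −0.04 ± 0.09 and −0.05 ± 0.09 in wild-type uteri. Its vehicle signals at 4 h were 745.8, 922.1 and 805.8 in wild-type and 567.9, 687.1 and 679.2 in PRKO uteri. The PRKO arrays were all lower at both times, by −0.34 ± 0.09 (adjusted p = 0.277) at 4 h and −0.24 ± 0.09 (adjusted p = 1) at 40 h, which did not pass. Aqp7, Aqp8 and Aqp9, with signals of 114.7 to 374.4, had wild-type changes between −0.12 and 0.16, and none passed.

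Calcium channel genes held no call in wild-type uteri. Cacna1c, the L-type channel of smooth muscle, had 24 signals between 757 and 1059 and changes of −0.10 at 4 h and −0.15 at 40 h. Cacna1g, a T-type channel, was named after its values were seen: its vehicle signals at 4 h were 255.2, 248.8 and 256.6 and its P4 signals 171.4, 203.9 and 209.5. These did not overlap, and the change of −0.34 ± 0.09 did not pass (adjusted p = 0.143), with 0.02 ± 0.09 at 40 h. Cacna1b, an N-type channel, had opposite signs in the genotypes: 0.31 ± 0.16 at both times in wild-type uteri, and −0.23 ± 0.16 and −0.35 ± 0.16 in PRKO uteri. Arrays overlapped in each of those comparisons, and the genotype difference at 40 h of 0.67 ± 0.22 did not pass (adjusted p = 0.409). Cacng1, an auxiliary subunit known from skeletal muscle, changed by 0.22 at 4 h and 0.06 at 40 h.

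Other potassium channel genes are given by their values. Kcnj8, the pore of a potassium channel closed by ATP in vascular muscle, had wild-type signals at 40 h of 1643, 1854 and 2058 with vehicle and 1618, 1363 and 1394 with P4. The P4 arrays were all lower, by −0.34 ± 0.11, which did not pass (adjusted p = 0.136), although it did with array weights (adjusted p = 0.00909). Kcnk2 (TREK1), a stretch-activated channel, had changes of −0.14 and 0.04 at the 2 times, Kcnh2 (ERG) had −0.02 and 0.04, and Kcnj11 had 0.00 at both. Kcnma1 and Kcnmb1, the pore and beta subunit of the large-conductance calcium-activated channel, had −0.04 and −0.10 at 4 h and 0.12 and −0.17 at 40 h. The main Kcna5 probe set was at −0.06 and −0.18, and none of these passed. Voltage-gated sodium channel genes lay between percentiles 2.2 and 19.6 of brightness, beside neuron and glia markers at a median percentile of 32.2, and none passed. Scn7a had the largest of their changes, −0.32 ± 0.12 at 40 h (adjusted p = 0.248).

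Vehicle uteri of the 2 genotypes differed at 1 member, at 4 h. Cftr, the cyclic AMP-regulated chloride channel of epithelia, had wild-type signals at 4 h of 132.7, 169 and 131.7 and PRKO signals of 186.5, 209 and 215.2. It was higher in PRKO uteri, without overlap, by 0.42 ± 0.09 (1.34-fold, adjusted p = 0.0486), where 0.185% of all probe sets passed, 0.153% higher. Arrays did not overlap for 7 members at 4 h, against 6.05%. At 40 h the vehicle signals were 148.7, 155.7 and 164.8 in wild-type and 190.2, 192.2 and 223.5 in PRKO uteri, again without overlap, and the difference of 0.31 ± 0.09 did not pass (adjusted p = 0.568). The P4 changes of Cftr were −0.02 ± 0.09 and −0.13 ± 0.09 in wild-type and −0.19 ± 0.09 at both times in PRKO uteri, and none of these passed. The call at 4 h was lost on leaving out any of 5 of 6 arrays, and with arrays of 4 h only in the model (adjusted p = 0.434). The other Cftr probe sets, with signals of 15.4 to 42.8, differed by −0.11 and 0.01 between genotypes at 4 h.

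**Figure D4:**
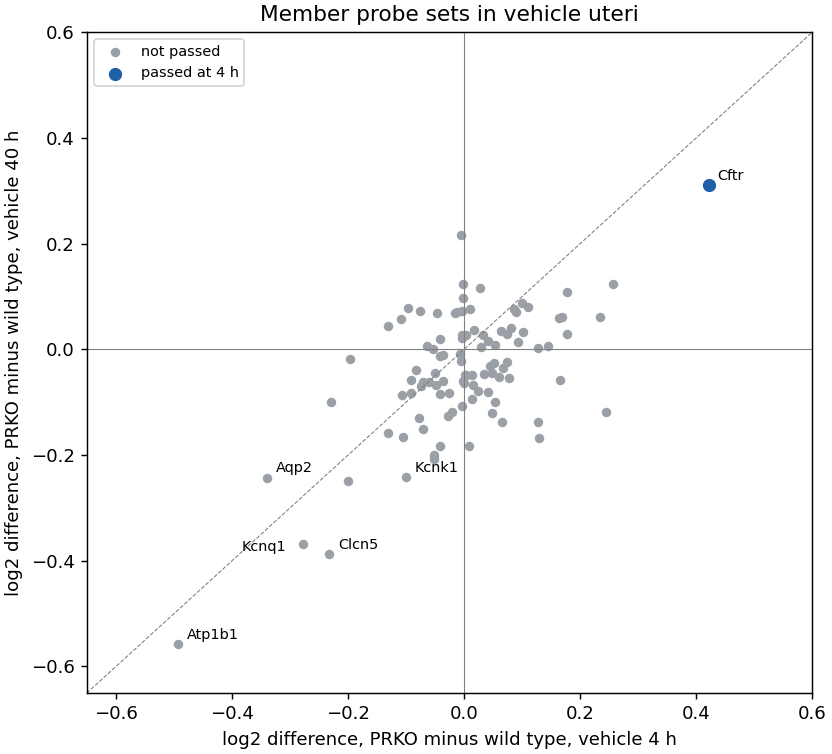
Log2 difference between PRKO and wild-type vehicle uteri for all 101 members at 4 h (horizontal) and 40 h (vertical), with equal differences on the dashed line. Cftr lies at 0.42 and 0.31, and the labelled probe sets of Kcnq1, Clcn5, Atp1b1 and Aqp2 lie below 0 at both times without passing.

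The probe sets that passed after P4 in wild-type uteri did not pass between the genotypes in vehicle uteri, and their differences did not all have the same sign. Kcnq1 was lower by −0.28 ± 0.08 at 4 h and −0.37 ± 0.08 at 40 h, without overlap at either time (adjusted p = 0.372 and 0.133). Clcn5 was lower by −0.23 ± 0.12 and −0.39 ± 0.12, also without overlap (adjusted p = 1 and 0.845). The Atp1b1 probe set that rose was at −0.49 ± 0.16, with overlap, and −0.56 ± 0.16, without (adjusted p = 0.482 and 0.596). Kcnk1 was at −0.10 ± 0.08 and −0.24 ± 0.08, and Atp1b3 at −0.20 ± 0.10 and −0.02 ± 0.10. Aqp4 was higher in PRKO uteri, by 0.16 ± 0.07 at 4 h, without overlap, and 0.06 ± 0.07 at 40 h (adjusted p = 0.84 and 1). At 40 h no member passed this comparison (0.0644% of all probe sets did), 6 had an unadjusted p under 0.05 (3.08% of all), and 16 members had arrays without overlap, against 10.3%. These comparisons use the same wild-type vehicle arrays as the wild-type P4 comparisons, so their values are not independent.

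The genes that work beside these channels were read from lists of partners. Of 14 measured channel regulators, 1 rose at 4 h, Sgk1, the steroid-induced kinase that raises epithelial sodium transport (1.09 ± 0.18, adjusted p = 0.0032). Its change at 40 h differed from that at 4 h by −1.40 ± 0.26 (adjusted p = 0.00976). None of 7 sodium pump partners and none of 11 ion exchangers and cotransporters passed at either time. Of 6 genes listed under other chloride channels 1 fell at 40 h (Clca1, −3.05 ± 0.47). Whether each product on that list forms a channel was not tested. Of 16 other cation channels 1 fell at 40 h, the ATP-gated channel P2rx4 (−0.47 ± 0.11, adjusted p = 0.0318). Among 11 genes of calcium pumps, calcium release channels and calcium-binding proteins 2 fell at 4 h (Calb1 and S100g) and 1, S100g, rose at 40 h. The time difference passed for S100g (2.60 ± 0.23, adjusted p = 1.31e-06) and Calb1 (2.11 ± 0.42, adjusted p = 0.0164). S100g alone among these partners passed the genotype difference at 40 h (1.82 ± 0.23, adjusted p = 0.000748), and at 4 h none did. For wild-type P4 the background was 0.708% at 4 h and 1.54% at 40 h. It was 0.475% for the time difference and 0.105% for the genotype difference at 40 h.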

How the data were processed

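Total RNA of whole uterus was hybridized to Affymetrix mouse arrays. The authors deposited linear signal intensity per probe set and array, and the submitters' processing notes name MAS5. No source used here gives its settings. Of 12488 rows, 66 controls were left out of the tests, and 35 of 299712 values were 0. Each array was scaled to a 2%-trimmed mean of 500 over all rows (scale factors 0.954 to 1.03), and log2(signal + 32) was computed. Probe sets of every brightness were kept, and all 101 members were tested. They were named from the platform annotation, and all 101 matched RefSeq by gene identifier.

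Group means of the 24 arrays were fitted in R 4.3.3 by limma 3.58.1, using two-sided moderated tests (16 residual and 4.98 prior degrees of freedom, intensity trend) and Benjamini-Hochberg adjustment over 12422 probe sets in each of 9 comparisons. The comparisons share 1 estimate of spread and some share arrays. Median SDs within groups were 0.111 to 0.147 at 4 h and 0.0767 to 0.0974 at 40 h.

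Members and lists were chosen with earlier results of these data known. Named members are those that passed, for wild-type P4 also the 5 highest and 5 lowest changes among members at or above the median signal, the brightest, and all Cftr, aquaporin and pump probe sets. Kcnd2, Cacna1g, Scn7a, Kcnma1 and Kcnmb1 were added after their values were seen. Named partners are passing genes of a list, at most 4. Same-numbered arrays correlated in their deviations above 0.1 for all 3 numbers between wild-type P4 and vehicle at 4 h (0.114 to 0.516). This held in no other of the 6 comparisons of 3 arrays with 3. The best-matching vehicle array had the same number for all 3 P4 replicates in wild-type uteri at both times and in PRKO uteri at 40 h. Some of those correlations were as low as 0.07. No label states a pairing, so the main fit used no pairs, and the replicate number served as a block only in an alternative. Alternatives changed the scaling, offset, filter, arrays used, trend, weights, replicate block and marker-score or Gapdh-ratio covariates.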

Additional observations from a re-analysis of the deposited data

Results flagged for a closer look

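Kcnq1 differed between genotypes in its P4 effect at 40 h, by −0.61 on the log2 scale (limma, adjusted p = 0.0379), as a fall in wild-type uteri beside no called change in PRKO uteri. In wild-type uteri the P4 effect of Kcnk1 differed between 4 h and 40 h by −0.85 (adjusted p = 0.000642), and that of Kcnq1 by −0.70 (adjusted p = 0.0033). The Kcnq1 genotype difference was lost on leaving out any 1 of 11 of the 12 arrays. The other, brighter Kcnq1 probe set did not pass that test and changed alike in both genotypes.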

How the results depend on the processing

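Among 11 passing member results, 181 of 231 alternatives kept the call, 50 lost it and 0 changed sign. Kcnk1 passed in all of them at 4 h (adjusted p up to 0.0498) and for its time difference (adjusted p up to 0.0271). The filter at a mean signal of at least 200 removed the passing Kcnq1, Aqp4 and Cftr probe sets, so these were not tested in that fit. Wild-type P4 at 4 h had 1 passing member instead of 3 with arrays of the same time only and without both arrays of high Gapdh ratio, while all passing probe sets went from 88 to 29 in both fits (2 to 3 leaving out 1 array). At 40 h the count of 4 became 2 at a mean signal of at least 200, 8 with arrays of the same time only, 8 with array weights, 0 with the adipocyte score, 1 with the skeletal muscle score and 7 with the epithelium score, chosen after seeing the data, and all passing probe sets went from 191 to 182, 539, 519, 3, 175 and 698 in that order (2 to 3 leaving out 1 array). PRKO P4 at 40 h had 43 (39 lower) with array weights, when 3706 of all probe sets passed, and 0 in each fit leaving out 1 array, as at 4 h.

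The genotype difference at 4 h had 1 instead of 0 with an offset of 64, at a mean signal of at least 200, with array weights, with the replicate block, with the Gapdh ratio and with the epithelium score (0 to 1 leaving out 1 array). At 40 h the count of 1 became 0 with the adipocyte, skeletal muscle or epithelium score, and 17 with array weights (0 to 1 leaving out 1 array). It was also 0 at a mean signal of at least 200, where the passing Kcnq1 probe set was left out. PRKO against wild-type vehicle at 4 h had 0 instead of 1 with quantile normalization, at a mean signal of at least 200, with arrays of the same time only, with no trend, with array weights and with the adipocyte score, and 2 with the replicate block and without both arrays of high Gapdh ratio (0 to 2 leaving out 1 array). At 40 h it had 1 instead of 0 with arrays of the same time only and without those arrays, and 2 with array weights (0 leaving out any 1 array). The time difference had 1 instead of 2 at a mean signal of at least 200 and with the adipocyte score (2 to 3 leaving out 1 array). The replicate block gave 6 for wild-type P4 at 40 h, Kcnk1 among them (adjusted p = 0.0324). Beside the changes given above it moved no other count.

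Signs turned for Kcnk2 at 4 h (0.00582 without both arrays of high Gapdh ratio), Kcnj8 at 4 h (0.0384 with the epithelium score), and Aqp1 at 4 h (0.033 and 0.0768 without wild-type vehicle replicate 3 or P4 replicate 2, with a lowest value of −0.32 without vehicle replicate 2) and at 40 h (0.31 with the adipocyte score). The cause was not tested. With 73 members below the median signal, small changes of dim members are limited by the offset and the spread.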
